A study of Homo sapiens with 9 samples.

Results

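The genes of cholesterol and fatty acid synthesis are described here across 9 RNA-seq libraries of HepG2, a human hepatocellular carcinoma cell line. The members were 33 named genes, and all 33 were listed among the 15164 genes of the deposited table. They were named by their role and not by a threshold on a measured value, but with earlier results of these data known. They comprised 7 enzymes of the mevalonate pathway, 12 enzymes from squalene to cholesterol, 4 regulators of sterol-responsive transcription, 2 sterol transport genes and 8 enzymes of fatty acid synthesis. The cells, labelled WT in genotype, had received a scrambled siRNA (siCtrl), an siRNA to IGFRIL (siIGFRIL) or an siRNA to PTBP1 (siPTBP1), with 3 libraries in each group. IGFRIL is a long noncoding RNA, and PTBP1 is a polypyrimidine tract-binding protein that acts in splicing and RNA stability. No genotype, drug or stimulus other than the siRNA set the groups apart in the labels, and the siRNA chosen for each target is not stated for these libraries. The sources give no separate cultures for the libraries of a group, so the p-values rest on a spread between libraries that may be only technical. The question addressed was what each knockdown did to transcript levels, and both knockdowns were set against the same 3 siCtrl libraries.

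Cells make cholesterol from acetyl-CoA through mevalonate, isoprenoid diphosphates, squalene and lanosterol, and they make fatty acids from the same acetyl-CoA. Most of these enzymes are transcriptional targets of the sterol regulatory element-binding proteins (SREBPs), which SREBF1 and SREBF2 encode. SREBF2 is best known for the cholesterol genes and SREBF1 for the fatty acid genes. SCAP carries SREBP from the endoplasmic reticulum to the Golgi, where it is cut and released, and INSIG proteins hold SCAP back when sterols are plentiful. On promoters, SREBP works beside NF-Y, which binds CCAAT boxes, and Sp1, which binds GC boxes.

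The windows before the start sites of 5 members are printed because they carry these letters and lie before genes that went both ways. SREBF2 had the only match to the sterol element letters TCACNCCAC among members with a window, and other spellings would not match. HMGCS1, MSMO1 and STARD4 were lower in siPTBP1, and EBP was higher. Each holds up to 200 bases before the RefSeq start of GRCh38.p14, 5' to 3' on the strand of the gene, less any base inside the GENCODE gene. Capitals mark CCAAT on either strand (CCAAT or ATTGG) and the sterol element TCACNCCAC. The windows lie at chr22:41832905-41833104 (plus strand), chr5:43313513-43313612 (minus strand), chr4:165327469-165327666 (plus strand), chr5:111512591-111512735 (minus strand) and chrX:48521608-48521798 (plus strand), in the order printed.
SREBF2: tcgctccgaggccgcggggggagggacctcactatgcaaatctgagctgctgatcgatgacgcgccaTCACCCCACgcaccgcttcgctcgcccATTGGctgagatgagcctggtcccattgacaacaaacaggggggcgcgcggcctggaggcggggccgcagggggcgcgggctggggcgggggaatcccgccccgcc
HMGCS1: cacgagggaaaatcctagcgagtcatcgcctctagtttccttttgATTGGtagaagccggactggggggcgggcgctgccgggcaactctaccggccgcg
MSMO1: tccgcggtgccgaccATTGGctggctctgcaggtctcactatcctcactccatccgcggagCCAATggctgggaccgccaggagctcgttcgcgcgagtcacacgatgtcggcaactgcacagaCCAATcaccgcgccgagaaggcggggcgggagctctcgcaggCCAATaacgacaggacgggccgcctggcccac
STARD4: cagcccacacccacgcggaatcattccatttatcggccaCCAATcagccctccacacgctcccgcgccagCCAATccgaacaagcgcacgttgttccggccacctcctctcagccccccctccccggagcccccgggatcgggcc
EBP: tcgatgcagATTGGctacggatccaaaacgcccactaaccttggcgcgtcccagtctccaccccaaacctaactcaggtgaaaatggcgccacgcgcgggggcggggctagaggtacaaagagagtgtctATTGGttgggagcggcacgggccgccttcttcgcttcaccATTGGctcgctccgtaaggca

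In these stretches CCAAT occurred 4 times in MSMO1, 3 times in EBP, 2 times in STARD4, 1 time in HMGCS1, and 1 time in SREBF2 beside its sterol element. For the counts that follow, both strands of the whole RefSeq window were searched, from 250 bases before to 50 bases after each start, and a gene counted once however many matches or windows it had. Windows were found for 29 of the 33 members. ACAT2, FDFT1, SQLE and FASN had none. CCAAT was found in 21 of 29 members (72.4%) and in 42.6% of the 11201 listed genes with a window. Among members lower in siPTBP1 it was found in 13 of 18 (72.2%), and among those higher in 5 of 7 (71.4%). The GC box letters GGGCGG were found in 27 of 29 members (93.1%) against 74.7% of listed genes, the E-box letters CACGTG in 4 (13.8%) against 12.6%, and TCACNCCAC in 1 (3.45%) against 1.38%. Each motif was searched on its own, so matches of different motifs may overlap. The CCAAT share was thus higher than in listed genes with nearly the same share in the members that rose and those that fell. The class that rose depends on the processing. PMVK, MVD, TM7SF2 and EBP were in it but changed sign once a trend on exon length and GC content was removed (-0.27, -0.19, -0.11 and -0.22). These are counts of letters in a window, with no test.

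The libraries held 23426893 to 27942860 counts each. The targeted gene PTBP1 had TMM-scaled counts (counts adjusted for library size and composition) of 9751, 10109 and 9519 in the siCtrl libraries, 10330, 9962 and 10536 in siIGFRIL and 2297, 2141 and 2085 in siPTBP1. PTBP1 fell by 2.17 on the log2 scale (SE 0.045, limma, adjusted p = 3.3e-17). IGFRIL was not listed, so its knockdown was not analysed here. Of 17 hepatocyte markers, only TF, FGG and CPS1 were listed. With CPS1 the sum was 2778 to 3070 CPM in siCtrl, 2584 to 2932 CPM in siIGFRIL and 1736 to 1785 CPM in siPTBP1, while TF and FGG together summed to 0.964 to 1.36 CPM in siCtrl and siIGFRIL and 2.76 to 3.79 CPM in siPTBP1. The defining hepatocyte genes ALB, APOA1, TTR and HNF4A were not listed in the values used here. Of 7 fibroblast markers 4 were listed and summed to 578 to 657 CPM over all libraries, mostly COL1A1 and COL3A1. Of 6 endothelial markers 4 were listed, at 14.5 to 15.9 CPM in siCtrl, 10.9 to 12.1 CPM in siIGFRIL and 3.54 to 4.73 CPM in siPTBP1. Of 6 leukocyte markers 2 were listed, at 3.94 to 4.59 CPM, 4.99 to 5.05 CPM and 6.46 to 7.15 CPM. The labels name HepG2 as the only cells of all 9 libraries, so these are levels of marker genes and not counts of other cell types. The part of these marker levels in the results was not tested. In bulk RNA fewer cells with a transcript and less of it per cell cannot be told apart.

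Per kilobase of exon, SCD and FASN, which make monounsaturated fatty acids and palmitate, had the highest levels in siCtrl at 321 ± 5.74 and 210 ± 10.2 CPM per kb (SD, n = 3). EBP, a sterol isomerase, followed at 118 ± 9.61 CPM per kb, and ACLY, which supplies cytosolic acetyl-CoA, at 99.96 ± 5.02 CPM per kb. The ranges of these 4 genes over the siCtrl libraries did not overlap. From FDPS, at 35.8 CPM per kb, to SQLE, at 33.4 CPM per kb, 7 members lay within a narrow band, and neighbours in it overlapped in range. FDFT1, at 0.259 CPM per kb, and ACACA, at 0.207 CPM per kb, were the lowest, with 25 to 43 and 63 to 76 scaled counts, and their ranges overlapped. SQLE and FASN, which act after them, had mean scaled counts of 3684 and 50186 in siCtrl. Why FDFT1 and ACACA had so few counts was not tested, so their true levels are uncertain. The members together took 0.715% to 0.740% of all counts in siCtrl, 0.688% to 0.721% in siIGFRIL and 0.496% to 0.497% in siPTBP1. FASN and SCD made up 48.5% to 52.2% of these counts in every library.

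Knockdown of PTBP1 was accompanied by lower levels of most of these genes. A gene was called at an adjusted p under 0.05 (limma, Benjamini-Hochberg over all 15164 genes) and a fold over 1.2. Against siCtrl, 28 of 33 members were called, 21 lower and 7 higher, whereas 66.0% of all genes were called, 33.8% lower and 32.2% higher. The median log2 fold change was -0.502 over the members and 0.005 over all genes. With no scaling between libraries the split was 22 lower and 3 higher among members and 6539 lower and 3560 higher among all genes, whose median shifted by -0.225. That setting corrects neither library depth nor composition, so calls gained or lost under it include this shift. In 29 members the siPTBP1 and siCtrl libraries did not overlap, 21 below and 8 above. That is 87.9% of the members against 76% of all genes. The medians over members in the single siPTBP1 libraries were -0.488, -0.549 and -0.504 relative to the siCtrl mean, and those of the siCtrl libraries lay between -0.036 and 0.020.

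**Figure D1:**
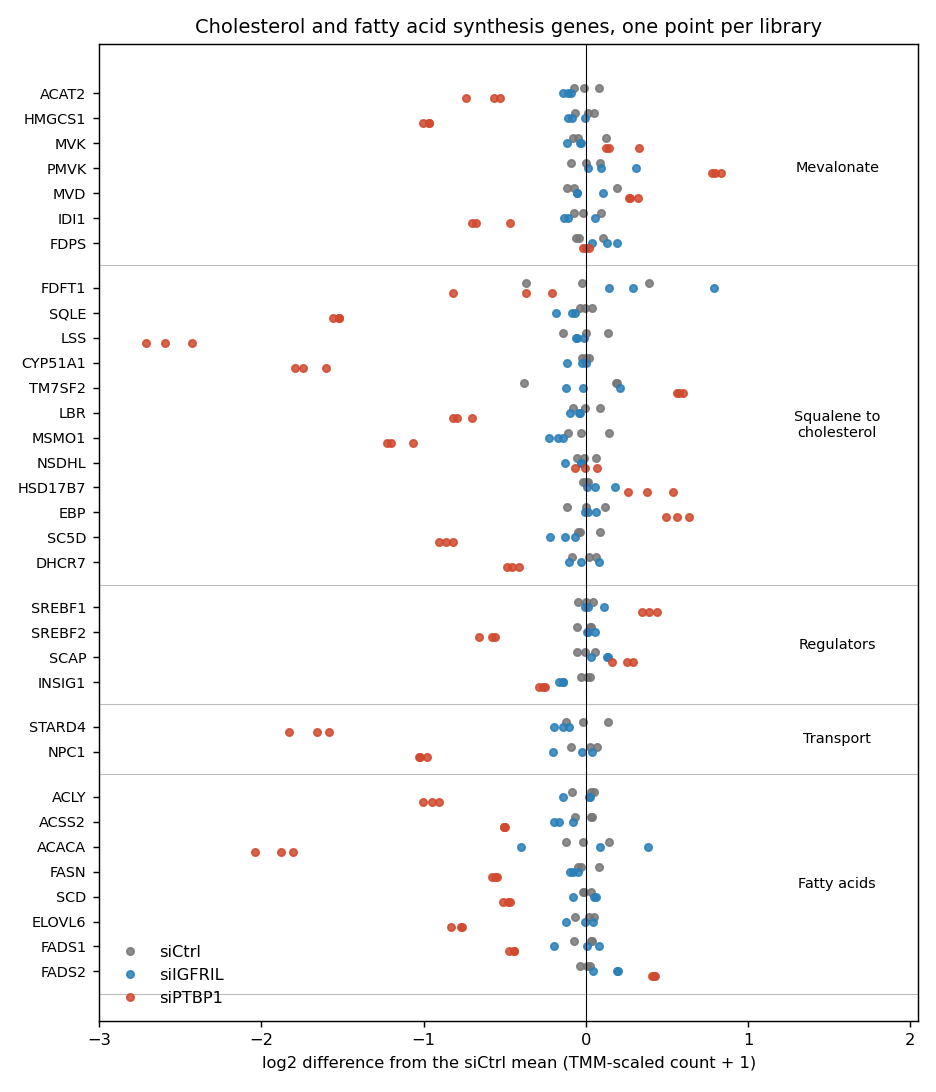
log2 difference of each library from the siCtrl mean (horizontal axis, from TMM-scaled count + 1) for the 33 members (rows, grouped by role), with siCtrl in grey, siIGFRIL in blue and siPTBP1 in red, 1 point per library. The siPTBP1 points lie left of the siCtrl points in 21 members and right of them in 8, and the siIGFRIL points mostly lie among the siCtrl points.

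Across all genes the siPTBP1 fold changes followed exon length, and this touches the calls. In 10 groups by exon length, the median log2 fold change of all genes was 0.673 in the shortest group (median 1152 bases) and -0.615 in the longest (median 15327 bases). The members' median exon length was 5248 bases and that of all genes 5120 bases. With the trend on exon length and GC content removed in each library, the median over members was -0.445, and 21 members were called lower and 4 higher. Of the 13868 genes in that fit, 4098 were called lower and 3928 higher, with a median of -0.016. The called members were not all the same genes as before, since PMVK, FDPS and NSDHL were then lower, MVK was higher, and SC5D, FADS1 and INSIG1 were no longer called. PMVK, MVD, TM7SF2 and EBP changed sign.

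**Figure D2:**
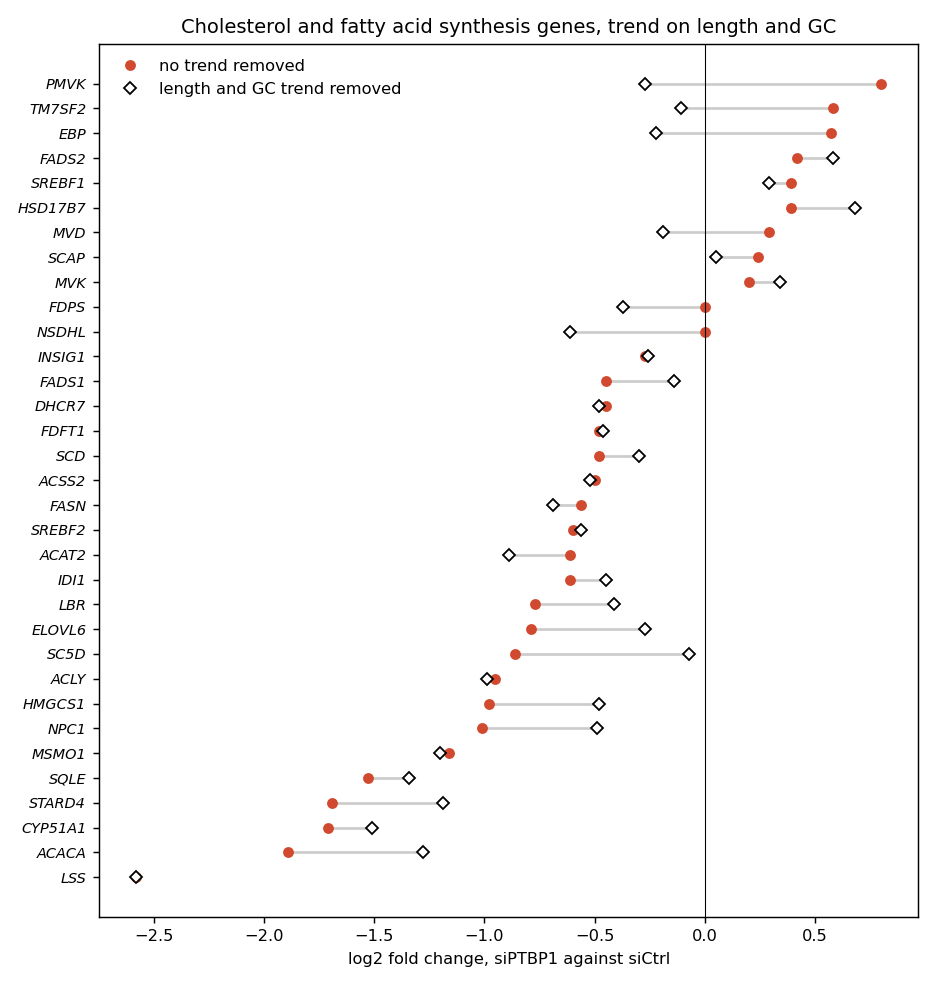
log2 fold change in siPTBP1 against siCtrl (horizontal axis) of each member (rows), as fitted (red circles) and with the trend on exon length and GC content removed (open diamonds). LSS stays at -2.58, while PMVK moves from 0.80 to -0.27 and SC5D from -0.86 to -0.07.

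In the mevalonate pathway the early enzymes and IDI1 were lower in siPTBP1, while PMVK and MVD in the middle of the pathway were higher. Of its 7 members 3 were called lower, 2 higher and 2 were not called, where 33.8% of all genes were called lower and 32.2% higher. The median was 0.002 and became -0.370 with the length and GC trend removed, when 5 were called lower and 1 higher. ACAT2, which joins acetyl-CoA units, had scaled counts of 1872, 1955 and 2085 in the siCtrl libraries, 1851, 1785 and 1823 in siIGFRIL and 1365, 1179 and 1329 in siPTBP1. HMGCS1, which makes HMG-CoA, had 1735, 1599 and 1694 in the siCtrl libraries, 1578, 1554 and 1666 in siIGFRIL and 858, 834 and 858 in siPTBP1. Both genes had every siPTBP1 library below every siCtrl library. ACAT2 fell by 0.61 (SE 0.060, limma, adjusted p = 1.7e-08), and HMGCS1 by 0.98 (SE 0.054, adjusted p = 5.2e-12), on the log2 scale. ACAT2 was at -0.89 and HMGCS1 at -0.48 with the trend removed. PMVK, which makes mevalonate diphosphate, had 837, 893 and 946 in the siCtrl libraries, 951, 1106 and 899 in siIGFRIL and 1547, 1589 and 1526 in siPTBP1. Its siPTBP1 libraries stood above all others, with a log2 fold change of 0.80 (SE 0.071, limma, adjusted p = 4.0e-09) that turned to -0.27 with the trend removed. MVD, the next enzyme, rose by 0.29 (limma, adjusted p = 0.00173), a call lost without siCtrl replicate 1 (0.23) or siCtrl replicate 2 (0.25) and with no scaling (0.06), and its sign turned with the trend removed (-0.19). IDI1, which interconverts the isoprenoid building blocks, had 3150, 3266 and 3532 in the siCtrl libraries, 3071, 3023 and 3451 in siIGFRIL and 2394, 2040 and 2071 in siPTBP1. It fell by 0.61 on the log2 scale (SE 0.066, limma, adjusted p = 1.1e-07), without overlap between siPTBP1 and siCtrl. MVK, which phosphorylates mevalonate, was at 0.20 (95% interval 0.05 to 0.35), short of the fold threshold, and at -0.03 with no scaling. FDPS, which makes farnesyl diphosphate, was at 0.00 (95% interval -0.11 to 0.11).

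ACAT2 lies at chr6:159762045-159779112, HMGCS1 at chr5:43287470-43313512 and PMVK at chr1:154924740-154936719 in the GRCh38 annotation (GENCODE release 44). In ACAT2, HMGCS1, IDI1 and FDPS, 22.2%, 37.7%, 15.0% and 18.6% of the exon bases overlap other genes. FDPS also has processed copies elsewhere in the genome. Whether reads were counted by strand is not stated, so the counts of these genes are uncertain by what the overlapping genes contribute.

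From squalene to cholesterol, LSS, CYP51A1 and SQLE showed the largest falls of the sterol enzymes, and TM7SF2, HSD17B7 and EBP were higher. Of the 12 members 7 were called lower, 3 higher and 2 were not called, with a median log2 fold change of -0.624 in siPTBP1. SQLE, the squalene epoxidase, had scaled counts of 3593, 3674 and 3786 in the siCtrl libraries, 3479, 3240 and 3523 in siIGFRIL and 1248, 1282 and 1283 in siPTBP1. LSS, which closes the sterol rings to lanosterol, had 604, 662 and 547 in the siCtrl libraries, 577, 580 and 597 in siIGFRIL and 91, 99 and 111 in siPTBP1. CYP51A1, the lanosterol demethylase, had 3851, 3804 and 3734 in the siCtrl libraries, 3728, 3497 and 3803 in siIGFRIL and 1132, 1093 and 1248 in siPTBP1. In these 3 consecutive enzymes the siPTBP1 libraries stood far below the other 6. Relative to siCtrl, LSS was at 16.6%, CYP51A1 at 30.5% and SQLE at 34.5%. LSS fell by 2.58 on the log2 scale (SE 0.094, limma, adjusted p = 3.2e-14), CYP51A1 by 1.71 (SE 0.053) and SQLE by 1.53 (SE 0.047), both at an adjusted p of 4.7e-15. With the trend removed the 3 values were -2.58, -1.51 and -1.34. LSS lies at chr21:46188141-46228824, SQLE at chr8:124998497-125022283 and CYP51A1 at chr7:92084987-92134803, where 74.1% of its exon bases overlap other genes. CYP51A1 has processed copies in the genome as well, so its level is uncertain.

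The next step, reduction of the sterol C14 double bond, can be made by TM7SF2 or by LBR, which is also the lamin B receptor of the nuclear envelope, and the pair went opposite ways. TM7SF2 had scaled counts of 139, 208 and 207 in the siCtrl libraries, 167, 210 and 179 in siIGFRIL and 276, 271 and 269 in siPTBP1. LBR had 2227, 2374 and 2115 in the siCtrl libraries, 2171, 2093 and 2184 in siIGFRIL and 1265, 1291 and 1375 in siPTBP1. Neither gene overlapped between siPTBP1 and siCtrl. TM7SF2 rose by 0.58 (SE 0.136, limma, adjusted p = 7.9e-04) and LBR fell by 0.77 on the log2 scale (SE 0.054, adjusted p = 1.4e-10). With the trend removed TM7SF2 was at -0.11 and LBR at -0.41. No scaling between libraries affects the ratio of TM7SF2 to LBR per kb, but the trend on length and GC stays in it. The ratio was 0.105 to 0.164 in siCtrl, 0.129 to 0.168 in siIGFRIL and 0.328 to 0.366 in siPTBP1. This and the other 3 ratios given were chosen after their values were seen, and they carry no test.

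The later sterol enzymes were mixed. MSMO1, the C4 methyl oxidase, had scaled counts of 1585, 1678 and 1892 in the siCtrl libraries, 1462, 1522 and 1554 in siIGFRIL and 731, 746 and 817 in siPTBP1, and fell by 1.16 on the log2 scale (SE 0.066, limma, adjusted p = 7.1e-12). SC5D, the sterol desaturase, had 1531, 1667 and 1516 in the siCtrl libraries, 1345, 1439 and 1502 in siIGFRIL and 888, 839 and 864 in siPTBP1. Both had all siPTBP1 libraries below siCtrl. SC5D fell by 0.86 on the log2 scale (SE 0.059, limma, adjusted p = 1.0e-10), but with the trend removed it was at -0.07 and no longer called, with an exon length of 10054 bases. EBP, the isomerase, had 4909, 5342 and 5779 in the siCtrl libraries, 5310, 5565 and 5378 in siIGFRIL and 8283, 7885 and 7521 in siPTBP1. It rose by 0.57 (SE 0.053, limma, adjusted p = 1.0e-08) with all siPTBP1 libraries above the rest, and was at -0.22 with the trend removed. Its exons at chrX:48521799-48528716 overlap other genes over 36.4% of their bases. HSD17B7, the 3-ketosterol reductase, rose by 0.39 (limma, adjusted p = 2.9e-04), a call lost with no scaling (0.16). Its trend-removed value was 0.68, and copies of the gene elsewhere leave its level uncertain. DHCR7, which makes cholesterol in the last step of one branch, fell by 0.45 on the log2 scale (limma, adjusted p = 1.2e-07). NSDHL, which works beside MSMO1, was not called, with a 95% interval of -0.12 to 0.11, and was at -0.61 and called with the trend removed. FDFT1, the squalene synthase, was at -0.48 (95% interval -1.03 to 0.08). FDFT1 had 18 to 28 scaled counts in siPTBP1 and 25 to 43 in siCtrl. It was not called as fitted, but it was called without siCtrl replicate 3 (-0.66) and with quantile normalization (-0.65). With no scaling, which shifted the median of all genes by -0.225, it was also called (-0.70).

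Of the 4 regulators, SREBF2 was lower, SREBF1 was higher, INSIG1 was slightly lower and SCAP did not pass the fold threshold. SREBF2 had scaled counts of 7441, 7452 and 7017 in the siCtrl libraries, 7355, 7343 and 7606 in siIGFRIL and 4627, 4887 and 4962 in siPTBP1. SREBF1 had 7237, 7503 and 7732 in the siCtrl libraries, 7458, 8091 and 7553 in siIGFRIL and 10128, 9508 and 9788 in siPTBP1. For both genes the siPTBP1 libraries stood apart from the other 6, in opposite directions. SREBF2 fell by 0.60 on the log2 scale (SE 0.042, limma, adjusted p = 1.6e-10), and SREBF1 rose by 0.39 (SE 0.044, adjusted p = 1.2e-07), a call lost with no scaling (0.16). Their exon lengths were 8053 and 8234 bases, and with the trend removed they were at -0.56 and 0.29. The ratio of SREBF1 to SREBF2 per kb was 0.951 to 1.08 in siCtrl, 0.971 to 1.08 in siIGFRIL and 1.90 to 2.14 in siPTBP1. SREBF2 lies at chr22:41833105-41907306 and SREBF1 at chr17:17810399-17837002.

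SCAP had scaled counts of 3261, 3404 and 3140 in the siCtrl libraries, 3577, 3595 and 3333 in siIGFRIL and 3655, 3997 and 3893 in siPTBP1, with a log2 fold change of 0.24 (95% interval 0.13 to 0.34). Its siPTBP1 libraries lay above siCtrl without reaching the fold threshold, which the value passed without siCtrl replicate 2 (0.27) or siPTBP1 replicate 1 (0.27). INSIG1 had 2338, 2424 and 2396 in the siCtrl libraries, 2126, 2167 and 2168 in siIGFRIL and 1986, 1957 and 2000 in siPTBP1. The 3 groups did not overlap, with siIGFRIL between the others. In siPTBP1 INSIG1 fell by 0.27 on the log2 scale (SE 0.045, limma, adjusted p = 2.3e-05), close to the fold threshold, and the call was lost without siCtrl replicate 2 (-0.26), without siPTBP1 replicate 2 (-0.26), with quantile normalization (-0.19) and with the trend removed (-0.26). INSIG2, its paralog and not a member, went the other way. It had 319, 342 and 322 in the siCtrl libraries, 475, 545 and 428 in siIGFRIL and 846, 964 and 1014 in siPTBP1, with no overlap among the 3 groups. The log2 fold change of INSIG2 was 1.52 in siPTBP1 (SE 0.089, limma, adjusted p = 1.1e-11) and 0.55 in siIGFRIL (SE 0.089, adjusted p = 0.00478). The ratio of INSIG2 to INSIG1 per kb was 0.124 to 0.131 in siCtrl, 0.182 to 0.232 in siIGFRIL and 0.394 to 0.468 in siPTBP1.

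**Figure D3:**
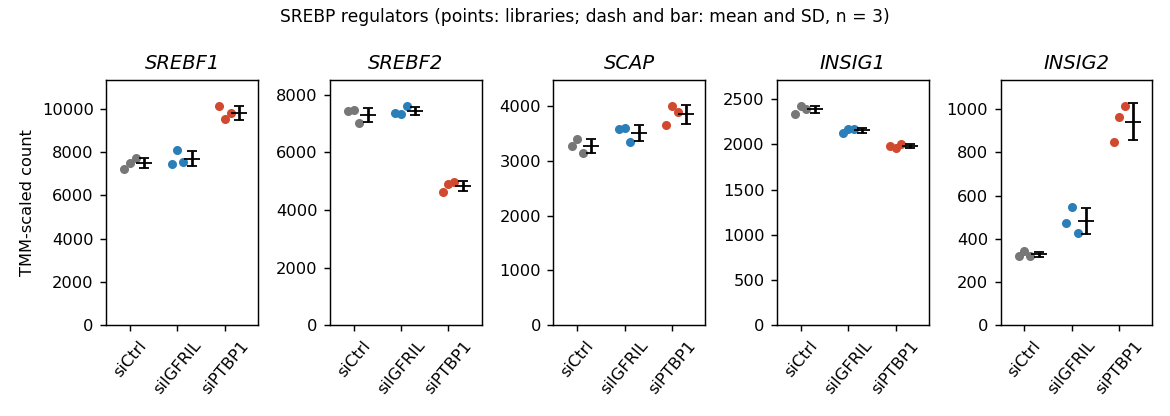
TMM-scaled counts (vertical axes, each from 0) of SREBF1, SREBF2, SCAP, INSIG1 and INSIG2 in siCtrl (grey), siIGFRIL (blue) and siPTBP1 (red), with 1 point per library and the mean and SD of 3 libraries in black. SREBF1 and INSIG2 are highest and SREBF2 and INSIG1 lowest in siPTBP1, and INSIG2 in siIGFRIL lies between the other groups.

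Both sterol transport members were lower in siPTBP1. STARD4, which carries cholesterol through the cytosol, had scaled counts of 861, 957 and 801 in the siCtrl libraries, 811, 760 and 788 in siIGFRIL and 244, 290 and 275 in siPTBP1. NPC1, which exports cholesterol from lysosomes, had 2196, 2261 and 2028 in the siCtrl libraries, 2217, 1874 and 2124 in siIGFRIL and 1064, 1093 and 1057 in siPTBP1. Neither overlapped with siCtrl. STARD4 fell by 1.69 (SE 0.081, limma, adjusted p = 7.3e-13) and NPC1 by 1.01 (SE 0.062, adjusted p = 1.9e-11) on the log2 scale, and with the trend removed they were at -1.19 and -0.49. STARD4 lies at chr5:111496033-111512590 and NPC1 at chr18:23506184-23586506.

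In fatty acid synthesis 7 of 8 members were called lower in siPTBP1 and FADS2 was called higher, with a median log2 fold change of -0.531. Of all genes 33.8% were called lower and 32.2% higher. The list had a median exon length of 8298 bases. With the length and GC trend removed its median was -0.411, with 6 lower and 1 higher. ACLY, which splits citrate to acetyl-CoA, had scaled counts of 13600, 13810 and 12561 in the siCtrl libraries, 13537, 12096 and 13522 in siIGFRIL and 6635, 6912 and 7115 in siPTBP1. ACSS2, which makes acetyl-CoA from acetate, had 873, 937 and 939 in the siCtrl libraries, 816, 798 and 868 in siIGFRIL and 645, 649 and 646 in siPTBP1. Both suppliers of acetyl-CoA were lower in every siPTBP1 library, ACLY with a log2 fold change of -0.95 (SE 0.049, limma, adjusted p = 2.1e-12) and ACSS2 of -0.50 (SE 0.062, adjusted p = 4.6e-07). The trend-removed values were -0.99 and -0.52. ACACA, the acetyl-CoA carboxylase, had 63, 76 and 68 in the siCtrl libraries, 90, 52 and 73 in siIGFRIL and 16, 18 and 19 in siPTBP1, a fall of 1.89 on the log2 scale that rests on few counts (SE 0.219, limma, adjusted p = 2.0e-07) and was -1.28 with the trend removed. FASN, the fatty acid synthase, had 49030, 52992 and 48536 in the siCtrl libraries, 46816, 47390 and 48412 in siIGFRIL and 34068, 34278 and 33616 in siPTBP1. Its siPTBP1 level was 67.7% of siCtrl (log2 fold change -0.56, SE 0.037, limma, adjusted p = 6.7e-11).

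SCD, the stearoyl-CoA desaturase, was lower in siPTBP1 at 30774 ± 462 scaled counts against 43059 ± 772 in siCtrl (SD, n = 3), a log2 fold change of -0.48 (limma, adjusted p = 1.1e-09). ELOVL6, which elongates palmitate, had 1653, 1750 and 1790 in the siCtrl libraries, 1727, 1586 and 1786 in siIGFRIL and 1020, 971 and 1014 in siPTBP1, and fell by 0.79 on the log2 scale (SE 0.057, limma, adjusted p = 2.2e-10). For both genes all siPTBP1 libraries lay below siCtrl, and with the trend removed the values were -0.30 and -0.27. FADS1 and FADS2, the delta-5 and delta-6 desaturases of polyunsaturated fatty acids, are neighbours on chromosome 11 with overlapping spans and opposite strands (chr11:61799627-61829318 and chr11:61792980-61867354). FADS1 was at 5838 ± 256 scaled counts in siCtrl and 4257 ± 53.4 in siPTBP1, and FADS2 at 1880 ± 41.7 and 2513 ± 16.9. FADS1 fell by 0.45 on the log2 scale (limma, adjusted p = 7.8e-07) and FADS2 rose by 0.42 (adjusted p = 3.4e-07). Their exon lengths were 10228 and 10553 bases, of which 5.57% and 5.11% overlap other genes. With the trend removed FADS1 was at -0.14 and no longer called and FADS2 was at 0.58, and FADS2 was not called with no scaling (0.19). The ratio of FADS2 to FADS1 per kb was 0.296 to 0.331 in siCtrl, 0.304 to 0.410 in siIGFRIL and 0.564 to 0.580 in siPTBP1.

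In siIGFRIL none of the 33 members was called by limma, in a comparison that called 0.468% of all genes, 0.277% higher and 0.191% lower. The limma voom fit also called 0 members. In the limma fit 7 of 33 members had an unadjusted p under 0.05 (FDPS, SQLE, MSMO1, SC5D, INSIG1, FADS2 and ACSS2), as had 1502 of all 15164 genes. The median log2 fold change was -0.037 over the members and -0.001 over all genes, with single members from -0.18 (MSMO1) to 0.39 (FDFT1). The siIGFRIL libraries did not overlap siCtrl in 8 members, 7 below (ACAT2, SQLE, MSMO1, SC5D, INSIG1, FASN and ACSS2) and 1 above (FADS2), which is 24.2% of the members against 15.2% of all genes. INSIG1 had the smallest p of the members, at a log2 fold change of -0.15 (95% interval -0.24 to -0.05, limma, adjusted p = 0.188), with all 3 siIGFRIL libraries below siCtrl. FADS2 was at 0.15 (95% interval 0.04 to 0.25, adjusted p = 0.269), with all 3 above. For SREBF2 the 95% interval was -0.06 to 0.12, for FASN -0.16 to 0.00, and for LSS -0.24 to 0.15, so the falls of these genes seen in siPTBP1 lie outside their siIGFRIL intervals. Of the other lipid genes INSIG2 was called in siIGFRIL, and HILPDA was called as well once the trend was removed (0.32). The INSIG2 adjusted p ran from 0.00066 to 0.032 over the 23 alternatives, with the call lost at a fold over 1.5 alone.

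Set directly against siIGFRIL, siPTBP1 again had 28 members called, 21 lower and 7 higher, where 64.6% of all genes were called, 33.1% lower and 31.6% higher. The median over members was -0.494 against 0.009 over all genes. With no scaling 23 members were lower and 3 higher, and 6226 of all genes were lower and 3649 higher. In this comparison FDFT1 was called, at -0.86 (limma, adjusted p = 0.00665), a call lost without siIGFRIL replicate 1 (-0.68), and INSIG1 was not, at -0.12. LSS differed by -2.54, ACACA by -1.91, CYP51A1 by -1.67 and SREBF2 by -0.62, all called. INSIG2 was higher in siPTBP1 than in siIGFRIL by 0.97 (limma, adjusted p = 8.0e-09).

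Other genes of lipid metabolism, 102 listed in 8 lists, were split in siPTBP1 into 42 lower, 26 higher and 34 not called. Among all 15164 genes 66.0% were called, 33.8% lower and 32.2% higher, so the share called in these lists together was close to that of all genes. With the length and GC trend removed, 4098 of 13868 genes were lower and 3928 higher. The counts per list below are descriptions to be read beside these shares. Of 15 genes of SREBP processing and turnover 11 were lower and 2 higher. NFYA, a subunit of the CCAAT-binding factor, had scaled counts of 1218, 1263 and 1266 in siCtrl and 489, 513 and 546 in siPTBP1, a fall of 1.27 on the log2 scale (limma, adjusted p = 8.3e-13). The factor's other listed subunits did not fall with NFYA. NFYB was not called (-0.08), and NFYC was called higher (0.39, limma, adjusted p = 8.7e-07). With the trend removed NFYA was at -0.98, NFYB at 0.21 and NFYC at 0.46. MBTPS2, a Golgi protease that releases SREBP, fell by 1.18 on the log2 scale (adjusted p = 5.0e-11), and was at -0.48 with the trend removed. With the trend removed the list had 5 lower and 2 higher, and its median moved from -0.501 to -0.142. Of 14 isoprenoid genes 5 were lower and 3 higher, with ZMPSTE24, which trims prenylated proteins, at -0.77, NUS1, a subunit of the dolichol synthase, at -0.65 and PGGT1B, a prenyltransferase subunit, at -0.65. NUS1 was at -0.30 with the trend removed, and PGGT1B was at 0.19 and no longer called. Of 4 further cholesterol synthesis genes 2 were lower and none higher.

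In sterol handling the genes went both ways. Of 14 genes of sterol uptake and trafficking 4 were lower and 4 higher, and with the trend removed 7 were lower and 3 higher. GRAMD1B and GRAMD1A, a pair of sterol transfer proteins at membrane contacts, went opposite ways, from 10435 ± 678 to 5327 ± 42.3 scaled counts and from 1809 ± 87.6 to 3451 ± 97.6 (SD, n = 3), at -0.97 (limma, adjusted p = 9.9e-13) and 0.93 (adjusted p = 3.1e-12) on the log2 scale, or -0.44 and 0.69 with the trend removed. Of 7 genes of efflux, esterification and the liver X receptors 3 were lower and 3 higher. NR1H2, a liver X receptor, had 1899, 1862 and 2028 scaled counts in siCtrl and 3580, 3888 and 3839 in siPTBP1, a log2 fold change of 0.97 (limma, adjusted p = 9.8e-12). NCEH1, which hydrolyses cholesteryl esters, and SOAT1, which makes them, were lower, at -1.54 and -0.74. NCEH1 was at -1.24 with the trend removed, and SOAT1 was at -0.20 and no longer called.

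Fatty acid oxidation was the 1 list of the 8 whose median was above 0. Of its 15 genes 6 were higher and 3 lower, with a median log2 fold change of 0.225 against 0.005 over all genes, and 10 were higher and 2 lower with the trend removed. ACADVL, a mitochondrial acyl-CoA dehydrogenase, rose from 9816 ± 294 to 22221 ± 567 scaled counts (SD, n = 3, log2 fold change 1.18, limma, adjusted p = 2.8e-14), and ECI1, an enoyl-CoA isomerase, from 1010 ± 30.4 to 2471 ± 177 (1.29, adjusted p = 9.0e-13). ACADVL was at 0.85 and ECI1 at 0.59 with the trend removed. CPT1A, which brings fatty acids into mitochondria, fell by 0.88 on the log2 scale (adjusted p = 9.3e-12). Of 18 genes of fatty acid elongation and activation 7 were lower and 4 higher, but with the trend removed 4 were lower and 5 higher and the median moved from -0.188 to -0.022. HACD2 and TECR, which act in successive steps of elongation, were at -1.69 and 1.19 (limma, adjusted p = 6.0e-15 and 1.5e-13), and ACSL3, an acyl-CoA synthetase, was at -1.08. Trend-removed values of HACD2 and TECR were -1.35 and 1.11, and ACSL3 was at -0.19 and no longer called. Of 15 genes of triglyceride synthesis and lipid droplets 7 were lower and 4 higher, and with the trend removed 6 were lower and 2 higher. The lipins LPIN1 and LPIN2, phosphatidate phosphatases, were at -1.55 and -1.21, and HILPDA, a hypoxia-inducible lipid droplet protein, had 464, 478 and 438 scaled counts in the siCtrl libraries, 577, 680 and 516 in siIGFRIL and 1404, 1557 and 1558 in siPTBP1, a log2 fold change of 1.71 (limma, adjusted p = 1.3e-12). LPIN1 and LPIN2 were both at -0.93 and HILPDA at 1.08 with the trend removed. In siIGFRIL HILPDA was at 0.35 (adjusted p = 0.0715).

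**Figure D4:**
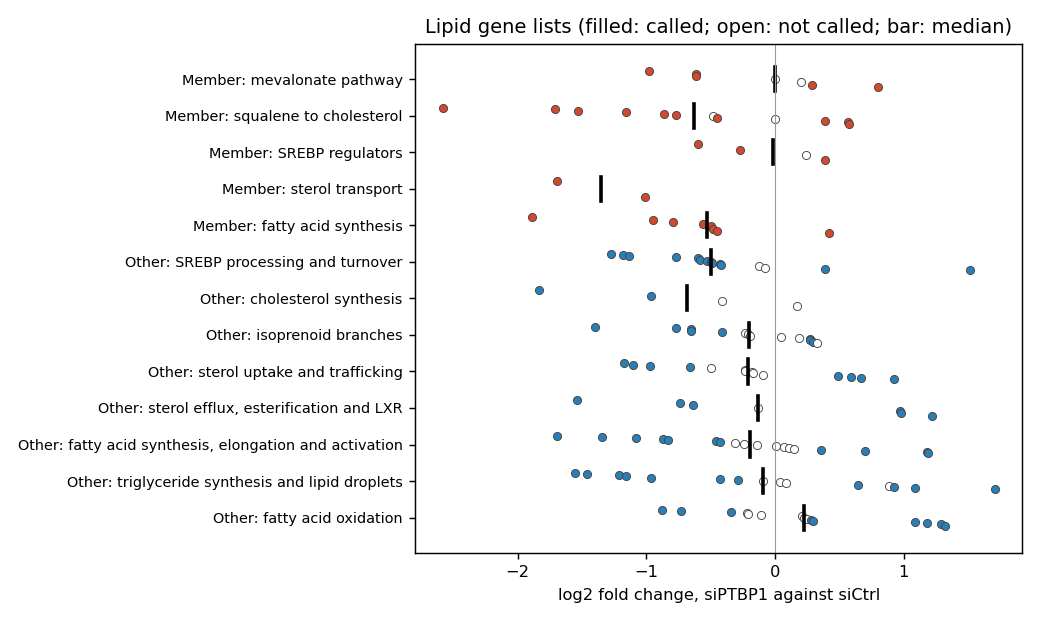
log2 fold change in siPTBP1 against siCtrl (horizontal axis) of members (red) and other lipid genes (blue) by list (rows), with called genes filled, genes not called open and the list median as a black bar. The medians are -0.624 in squalene to cholesterol, -0.531 in fatty acid synthesis and 0.225 in fatty acid oxidation.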

How the data were processed

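RNA of HepG2 cells was made into libraries with an mRNA kit and sequenced. Per the labels and the study's methods, reads were trimmed (Trim Galore 0.6.7), aligned (Bowtie2 2.2.5) to GRCh38 and counted per gene (RSEM 1.2.8). The deposited values were log2(count + 1) to 2 decimals, not scaled for depth, with the step that made them not stated in the sources used here. Counts were returned from these log2 values, and rounding moves a count by at most 0.347%. The columns siNC and siPTB were taken as siCtrl and siPTBP1 by name, and the remaining prefix as siIGFRIL by elimination. Counts were scaled by TMM (own code). Values of log2(scaled count + 1) were fitted over all 9 libraries with limma 3.58.1 (R 4.3.3, trend, robust), and p-values were adjusted by Benjamini-Hochberg. The fit was tried on simulated counts with far fewer genes changed than in siPTBP1, in balanced directions and with no length trend. The simulation reused the size factors of the libraries, so it does not test the scaling. No gene was removed by the filter (a count of at least 1 in 3 libraries). Exon length, GC content and coordinates came from GENCODE release 44 (GRCh38) for 13868 genes (91.5%), and promoter windows from RefSeq.

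The members and the lists of other lipid genes were chosen with earlier results of these data known. Values per library are given for members called with a log2 fold change of at least 0.5 in either direction and for the 4 regulators, and from each other list the 3 genes with the smallest p were taken. Results for some genes so taken are not reported here. Alternatives were other scalings, filters, pseudocounts, voom, no robust estimation, 6 libraries, a replicate block, removal of a lowess trend (span 0.4) on length and GC, other thresholds and each library left out.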

Additional observations from a re-analysis of the deposited data

How the results depend on the processing

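The count of 0 members called in siIGFRIL was the same under all 23 alternatives. The count of all genes called there, 71, ran from 36 to 145 with 1 library left out (without siCtrl replicate 1 it was 36, replicate 2 47 and replicate 3 145, and 45 without siIGFRIL replicate 1) and was 7 at a fold over 1.5. In siPTBP1 against siCtrl, 14 of 33 members kept their call or lack of it in every alternative run. At a fold over 1.5, 16 members were called (15 lower, 1 higher), and 15 against siIGFRIL (14 lower, 1 higher). Of all 15164 genes, 7028 were called at this fold against siCtrl (3592 lower, 3436 higher) and 6711 against siIGFRIL (3418 lower, 3293 higher). With both directions pooled, the share of members called was thus close to that of all genes. By direction the shares differed, with a larger share of the members lower and a smaller share higher. The median over members against siCtrl was -0.445 with the length and GC trend removed, -0.730 with no scaling and -0.555 with quantile normalization, and ran from -0.568 to -0.490 with 1 library left out. Against siIGFRIL it was -0.384 with the trend removed and -0.683 with no scaling.

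Among called members, those whose log2 fold change in siPTBP1 changed sign did so with the trend removed: PMVK (-0.27 against siCtrl and -0.37 against siIGFRIL), MVD (-0.19 and -0.17), TM7SF2 (-0.11 and -0.10), EBP (-0.22 and -0.21) and, against siIGFRIL alone, SC5D (0.02). Among members not called, MVK against siCtrl was at -0.03 with no scaling. Over the alternatives FDPS ran from -0.37 to 0.05 and NSDHL from -0.61 to 0.12 against siCtrl, and both were called lower with the trend removed. Against siIGFRIL, SCAP was at -0.04 with the trend removed and -0.05 with no scaling, and NSDHL at -0.51, then called, and -0.13. The cause was not tested.

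With the replicate number as a block, 28 members were called in siPTBP1 against siCtrl, 28 against siIGFRIL and 0 in siIGFRIL, and 67, 9991 and 9736 of all genes in siIGFRIL, siPTBP1 and the direct comparison. With the trend removed and the block together, the medians were -0.445 and -0.384 and the sign changes had the same values. Deviations of libraries with the same number correlated at -0.109 to 0.111, so the numbers were not taken to pair the libraries. The block alone changed no member's call in any of the 3 comparisons. FDFT1 and ACACA, with under 100 counts in every library, had the largest SEs of the members.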
